A study of Rattus norvegicus with 12 samples.

Results

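Neurons of the dorsal horn of the spinal cord carry either fast inhibition, through GABA and glycine, or fast excitation, through glutamate, and a small set of genes fixes which. The 10 genes described here are Slc6a5, Slc32a1, Gad1, Gad2, Slc17a6, Slc17a7, Pax2, Lmx1b, Tlx3 and Lbx1. They were chosen by name, and their probes were those whose RefSeq accession belongs to one of them in a current rat annotation. Of the 10 genes, 8 had a matched probe on the array, out of 15159 named genes, and together they had 10 probes of 30367. No probe was matched to Lmx1b or Tlx3, transcription factors of excitatory dorsal horn neurons.

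The study hybridized RNA from dorsal spinal cord, dorsal root ganglia (DRG) and sciatic nerve to 12 single-color Agilent arrays, and each array held RNA pooled from 3 female rats aged 8 weeks. All rats had received the peptide MBP84-104 of myelin basic protein (50 μg in 5 μL) into the left sciatic nerve. The wild-type rats were Sprague-Dawley rats taken at day 12, and the nude rats were athymic rats, which lack mature T cells because of a mutation in Foxn1, taken at day 7. In each rat type, 1 array held the lumbar dorsal cord and 1 the dorsal cord above the lumbar enlargement, called thoracic here. The left DRG and left nerve were the injected side, and the right DRG and the right nerve, which the labels list as given vehicle, were contralateral. Strain and day are given here as on the labels, while the paper names heterozygous rats as controls and gives the same time for both rat types. By the labels, strain, day and T cells cannot be told apart between the rat types. For cord and DRG the same is true of the slide, which cannot be told apart from rat type because the wild-type arrays of these tissues lay on a slide of their own. A condition had 1 array, so a difference between the arrays of a pair has no replicate check. The lumbar and thoracic cords of a rat type, and both its nerves, came from the same animals according to the paper. Pooled tissue does not tell fewer cells of a type from less RNA per cell.

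A value below is the log2 signal of a probe minus the median of its array, so 0 is the middle probe of that array. A probe was called well above background where more than 50% of its spots carried that flag, and a value under the lowest such probe of an array was set to that floor in ratios and tests. The median signal of an array lay between 23.5 and 122, and it was lowest on the nude injected nerve array. The tissues carried their own markers. All 11 tested sensory neuron genes were lower in the cord than in the DRG (limma, adjusted p under 0.05), and all 9 astrocyte genes were higher in the cord than in either other tissue. Over all probes tested, 28.1% were called lower in the cord than in the DRG, 31.9% higher than in the DRG and 28% higher than in the nerve. Several of these marker genes entered the test only through the tissue where they are high, so their calls follow from the filter and are a description. The 3 measured lumbar Hox genes exceeded 2-fold between lumbar and thoracic cord in both rat types, with the lumbar array higher. Hoxd9, for example, differed by 1.60 and 1.50 on the log2 scale. The thoracic Hox genes did not give the reverse: of 3 measured in both pairs 2 had a higher lumbar value in both, Hoxc4 by 0.93 and 0.72 and Hoxb8 by 1.21 and 0.56.

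Inhibitory neurons make GABA with the glutamate decarboxylases Gad1 and Gad2, and load GABA and glycine into vesicles through the vesicular transporter Slc32a1 (VGAT). Glycinergic neurons also take glycine back up through Slc6a5 (GlyT2). Excitatory neurons fill their vesicles through a vesicular glutamate transporter, which is Slc17a6 (VGLUT2) in most dorsal horn cells and Slc17a7 (VGLUT1) in many large sensory and cortical neurons. In development Lbx1 marks a dorsal class of cord neurons, in which Pax2 promotes the inhibitory choice while Tlx3 and Lmx1b promote the excitatory one.

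The 250 bases before the annotated start of 3 of these genes follow, each 5′ to 3′ on the coding strand, from RefSeq on the build GRCr8. They are the vesicular transporter and a GABA synthesis enzyme of inhibitory cells and the vesicular transporter of excitatory cells, shown because the levels below turn on them. Capitals mark matches to the motifs named after the sequences.
Slc32a1, chr3:167686995-167687244 (+ strand): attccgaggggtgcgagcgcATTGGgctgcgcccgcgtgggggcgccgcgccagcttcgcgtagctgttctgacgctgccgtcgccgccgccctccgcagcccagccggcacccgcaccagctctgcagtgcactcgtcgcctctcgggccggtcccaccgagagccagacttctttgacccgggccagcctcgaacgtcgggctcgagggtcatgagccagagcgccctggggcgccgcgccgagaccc
Gad2, chr17:89671468-89671717 (+ strand): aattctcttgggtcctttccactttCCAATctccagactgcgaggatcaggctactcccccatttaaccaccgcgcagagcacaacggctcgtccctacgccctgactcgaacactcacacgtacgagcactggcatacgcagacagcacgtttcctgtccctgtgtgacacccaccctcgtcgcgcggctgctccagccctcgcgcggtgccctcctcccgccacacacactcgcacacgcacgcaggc
Slc17a6, chr1:110348197-110348446 (+ strand): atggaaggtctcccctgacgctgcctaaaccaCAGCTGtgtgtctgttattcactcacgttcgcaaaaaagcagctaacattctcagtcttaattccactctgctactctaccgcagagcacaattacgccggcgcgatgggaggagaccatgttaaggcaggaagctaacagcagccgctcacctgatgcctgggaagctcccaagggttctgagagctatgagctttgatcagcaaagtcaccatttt
The motif CCAAT, searched on both strands, was found in the windows of Slc32a1, Gad2 and Tlx3, and such a match is present in 34% of the 33469 rat windows of this length. In Slc32a1 it reads ATTGG on the strand shown. CAGCTG, a core that basic helix-loop-helix proteins can bind, occurred in Slc17a6 alone of the 10 genes and in 12% of all windows. TAATTA, a homeodomain core, occurred in Slc6a5 alone and in 4.86% of windows, while TGACGTCA was in none of the 10 and in 1.59% of windows. The windows of the 10 genes had a median GC content of 65.2%, against 51.2% for all windows. Their median ratio of observed to expected CpG dinucleotides was 0.82, against 0.38. A match here is a stretch of letters, and no binding was measured.

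On the 4 cord arrays, 7 of the 8 genes with a probe were well above background on every array. Slc17a7 stayed below that level on all 12 arrays, with signals between 2.25 and 7.56, so it has no level here. In both rat types all 7 measured genes gave a higher value on the lumbar array, as did 24% of the 10589 genes measured in both pairs. None of the brightest probes differed by 2-fold, but in the wild-type pair Slc32a1 passed it at 1.13 on the log2 scale under quantile normalization and in the authors' normalized values, and Gad1 at 1.07 as the mean of both its probes. Of all 11067 genes measured in the wild-type pair 0.913% were at least 2-fold higher in the lumbar cord and 40.3% had a ratio above 0, against 0.786% and 37.8% of 10693 in the nude pair. Both lumbar arrays lay above both thoracic arrays for 7 of 7 genes, which held for 15.8% of the same 10589 genes. The 7 genes had a median log2 ratio of 0.58 (wild-type) and 0.20 (nude), where the median of all genes was -0.07 in each. The direction was kept by all 7 genes in both pairs under each of the 8 other ways of scaling and filtering that were run. These settings rework the same 4 arrays and are no replicate, and Pax2 fell to 0.01 in the nude pair over the alternatives.

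**Figure D1:**
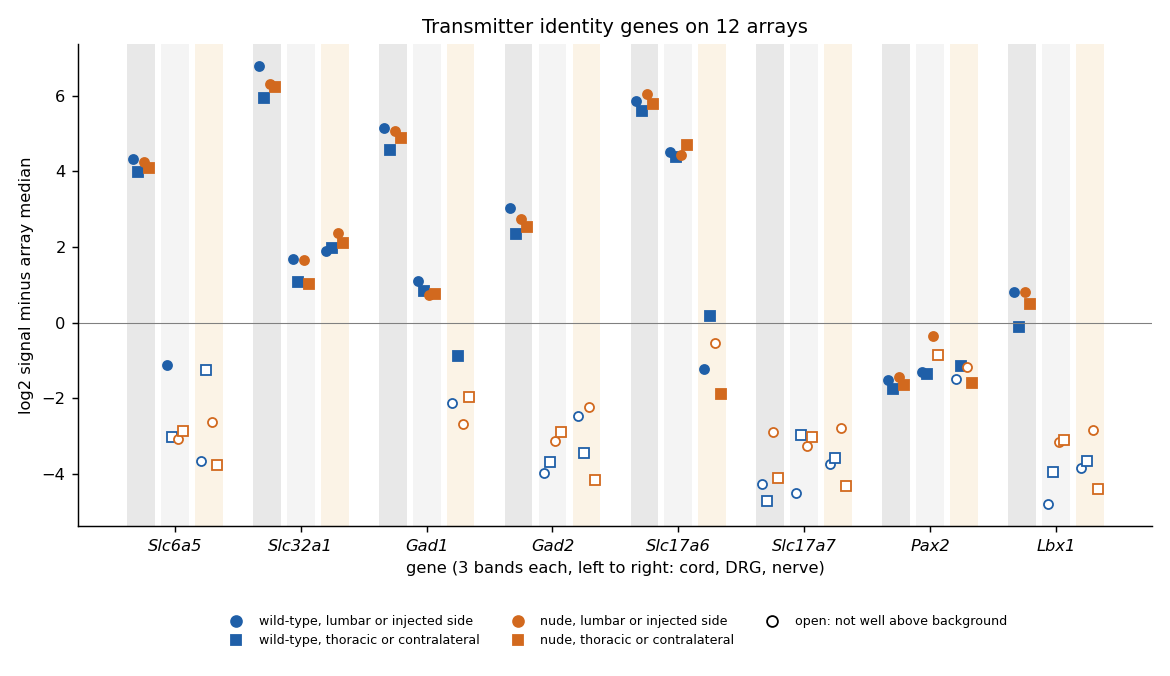
Log2 signal minus the array median (y axis) of the brightest probe of each of the 8 genes with a matched probe (x axis) on the 12 arrays, in 3 bands per gene for cord, DRG and nerve. Blue is wild-type and orange nude, circles are lumbar or injected-side arrays and squares thoracic or contralateral arrays, and open symbols are not well above background. Slc17a6 is lowest in nerve, Slc32a1, Gad1, Gad2 and the brightest Slc6a5 probe are highest in cord, and Slc17a7 is open throughout. Heights of different genes come from different probes and cannot be compared.

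Among the inhibitory genes, Slc32a1 read 6.78 on the wild-type lumbar array, 5.93 on the wild-type thoracic array, 6.30 on the nude lumbar array and 6.22 on the nude thoracic array. The wild-type lumbar array stood highest and the wild-type thoracic array lowest, with both nude arrays close together between them. The lumbar to thoracic ratio was therefore 1.81-fold in the wild-type pair, where 98.5% of genes had a lower ratio, and 1.06-fold in the nude pair, where 72.9% had. This probe had 1 spot per array, so its spread between spots is unknown.

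Gad2, which makes GABA at nerve terminals, read 3.03 and 2.35 on the wild-type lumbar and thoracic arrays and 2.75 and 2.52 on the nude ones. Its ratios were 1.60-fold and 1.17-fold. Gad1, which makes GABA through most of the cell, read 5.14 and 4.55 in the wild-type pair and 5.06 and 4.89 in the nude pair on its brighter probe, and its ratios were 1.50-fold and 1.13-fold. As for Slc32a1, the wild-type pair spread wider than the nude pair and enclosed it for both enzymes. A second, dim probe for Gad1 with 1 spot read -0.42 and -1.99 in the wild-type pair and -0.56 and -0.73 in the nude pair. That probe gave a wild-type ratio of 2.96-fold, well above the 1.50-fold of the brighter probe, from signals of 40.6 and 18.9, and both probes gave 1.13-fold in the nude pair.

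Slc6a5 read 4.33 and 3.99 on the wild-type lumbar and thoracic arrays and 4.26 and 4.08 on the nude arrays. The ratios, 1.27-fold and 1.13-fold, were smaller than those of the GABA enzymes in the wild-type pair. On a second, dimmer probe the gene read 0.13 and -0.33 in the wild-type pair and 0.40 and -0.24 in the nude pair, with log2 ratios of 0.45 and 0.63. The probes agreed on the direction but not on which rat type had the larger ratio.

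Slc17a6, the excitatory transporter, read 5.84 and 5.60 on the wild-type lumbar and thoracic arrays and 6.05 and 5.77 on the nude arrays. Its log2 ratios were 0.24 and 0.28, with standard errors between its 10 spots per array of 0.02 in each pair. On the brightest probes it was the 1 gene of the 7 whose ratio was not larger in the wild-type pair, and 52.3% of genes measured in both pairs had the larger ratio there. The wild-type value moved with the background correction, to 0.04 under normexp, and to 0.35 in the authors' normalized values.

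Of the transcription factors, Lbx1 read 0.81 and -0.12 on the wild-type lumbar and thoracic arrays and 0.82 and 0.48 on the nude arrays. Both lumbar arrays gave nearly the same value, and the thoracic arrays differed. Its ratios were 1.90-fold in the wild-type pair, where 98.8% of genes had a lower ratio, and 1.26-fold in the nude pair, where 92.0% had. Pax2 was dim, with signals between 17.3 and 22.2 in the cord. It read -1.52 and -1.76 in the wild-type pair and -1.44 and -1.64 in the nude pair, log2 ratios of 0.24 and 0.20. These are smaller than their standard errors between spots, 0.30 and 0.50.

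For all 7 genes the wild-type thoracic array was the lowest of the 4 cord arrays. That array was also the brightest, with a median signal of 122 against 87.2 to 89.7 on the other cord arrays. The highest array was wild-type lumbar for 4 genes and nude lumbar for the other 3. Between the thoracic arrays the nude value exceeded the wild-type value by 0.60 for Lbx1, 0.33 for Gad1 and 0.29 for Slc32a1. Between the lumbar arrays the same genes differed by 0.01, -0.08 and -0.48. Over the 7 genes the rat types lay farther apart on the thoracic arrays for 4 and on the lumbar arrays for 3 (Slc32a1, Gad2 and Slc17a6). No share over all genes stands beside these counts, so they are a description of the 7 genes. The part of array brightness in this order was not tested. The difference between the rat types was not tested, since each pair is 1 comparison.

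**Figure D2:**
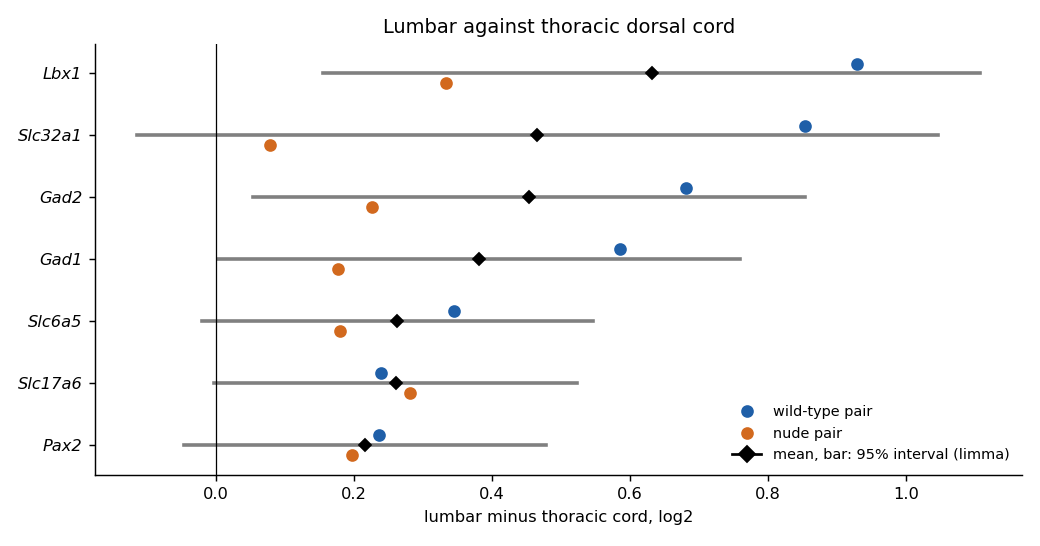
Lumbar minus thoracic dorsal cord (x axis, log2) for the brightest probes of the 7 measured genes (y axis, ordered by the mean). Blue points are the wild-type pair and orange points the nude pair, and black diamonds are the mean of both with a 95% interval from limma. All 14 points lie above 0, from 0.08 to 0.93, and the interval stays above 0 for Lbx1, Gad2 and Gad1.

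A limma fit over the 4 cord arrays, with rat type as a block, asked whether the segments differed across both rat types. None of the 19805 probes tested passed an adjusted p of 0.05, or 0% in each direction, while 21.2% had an unadjusted p under 0.05 and 7.93% had one with the higher level in the lumbar cord. The means of the brightest probes ran from 0.22 ± 0.10 (SE, 2 pairs) for Pax2 to 0.63 ± 0.17 for Lbx1 on the log2 scale, with adjusted p-values between 0.174 and 0.299 in limma. Unadjusted p-values in this fit were 0.021 for Lbx1, 0.034 for Gad2 and 0.049 for Gad1. The 95% intervals were 0.15 to 1.11, 0.05 to 0.85 and 0.00 to 0.76. With 2 pools per segment, the intervals of the other 4 genes reached below 0, although each gene moved one way in both. The dimmer probe of Slc6a5 gave 0.54 with an interval of 0.26 to 0.83, and its unadjusted p of 0.0059 in limma was the lowest of the transmitter probes (adjusted p = 0.134). A t-test on the same values, paired by rat type where the methods name an unpaired test, called 1 probe after Benjamini-Hochberg adjustment. That probe was lower in the lumbar cord, and 1876 probes had an unadjusted p under 0.05. Under normexp background correction limma called 1580 probes, of which 18.0% were higher in the lumbar cord, and Slc32a1 was then among the probes called higher (adjusted p = 0.036).

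Other genes of the same pathways were set beside them. Of 14 measured markers of excitatory dorsal horn neurons other than Slc17a6, 13 had a higher value in the lumbar cord of both rat types, and the median log2 ratios were 0.41 for the wild-type pair and 0.33 for the nude pair. Over all 10589 genes measured in both pairs 24% were higher in both, the share to set beside such counts here. None of these markers was called in limma, which called no probe of any gene between the segments. Tacr1, the substance P receptor, gave 0.92 and 0.46, Tac1, which encodes substance P, 0.92 and 0.37, Grp, the gastrin-releasing peptide, 0.72 and 0.60, and Nmu, a neuropeptide, 0.64 and 0.53. Of 10 other inhibitory dorsal horn markers measured in both pairs, 5 were higher in both and 2 lower in both, with a median ratio of 0.40 over the 11 measured in the wild-type pair and 0.24 over the 10 in the nude pair. The opioid peptide genes Pdyn and Penk gave 0.70 and 0.68 in the wild-type pair and 0.67 and 0.56 in the nude pair. Gal, the galanin gene, gave -1.02 and -0.61. Receptors and scaffold proteins of inhibitory synapses had medians of 0.21, which fell to 0.03 under normexp, and 0.23, and 11 of 15 were higher in both pairs. The glycine receptor subunits Glra1 and Glra3 each gave between 0.55 and 0.63. As with the transmitter genes, no member of these lists passed limma's adjusted threshold between the segments.

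Genes that handle the transmitters without defining the neuron showed no such common direction. The 6 measured genes of GABA and glycine handling had medians of 0.14 in the wild-type pair, which fell to -0.04 under normexp, and -0.12 in the nude pair. Abat, which breaks GABA down, gave 0.64 and 0.41, while Slc6a9, the mainly glial glycine transporter GlyT1, gave -0.19 and -0.57. The 12 measured genes of glutamate handling had medians of 0.12, which turned to -0.07 under normexp, and -0.12. Genes of other transmitter systems had medians of -0.06 and -0.05. Of these, Slc5a7, the choline transporter of cholinergic neurons, gave -0.36 and -1.08.

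Markers of other cells also differed between the same arrays, and their part in the ratios above was not tested. Of the 10589 genes measured in both pairs 45.9% were lower on the lumbar array in both, and 24% were higher in both. These are the shares to set beside the counts of lower and higher genes here. Of 22 general neuronal genes 11 were higher on the lumbar array in both pairs and 4 were lower in both. Their medians were 0.29 (wild-type) and 0.02 (nude), with the synaptic vesicle gene Syt1 at 1.16 and 0.31. That order, larger in the wild-type pair, is also the order of 6 of the 7 transmitter genes on their brightest probes, and of 52.3% of all genes measured in both pairs. The dimmer probe of Slc6a5 gave the reverse order. Of 8 Schwann cell genes 7 were higher in both lumbar arrays, with medians of 2.23 and 1.50, and 5 were over 2-fold higher in both. The summed level of the Schwann cell genes on a linear scale, in units of the array median, was 328 to 395 on the lumbar and 98.5 to 121 on the thoracic arrays. Of 12 oligodendrocyte genes, the cells of central myelin, 10 were lower in both lumbar arrays, with medians of -0.62 and -0.55, and their summed level was 5629 to 5790 on the lumbar and 5185 to 6814 on the thoracic arrays. Of 9 astrocyte genes 3 were lower in both, a smaller share than over all genes, and the list medians were 0.05 and -0.24. In the wild-type pair 6 of the 9 were higher on the lumbar array, and in the nude pair 1 was. Gfap, at -1.52 and -1.10, was the 1 gene of the list past 2-fold in both. The 6 measured motor neuron and ventral cord genes included 4 that were lower in both, with medians of -0.19 over 8 genes in the wild-type and -0.79 over 6 in the nude pair. Microglia genes had medians of -0.07 and 0.15, and sensory neuron genes -0.11 and -0.27.

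**Figure D3:**
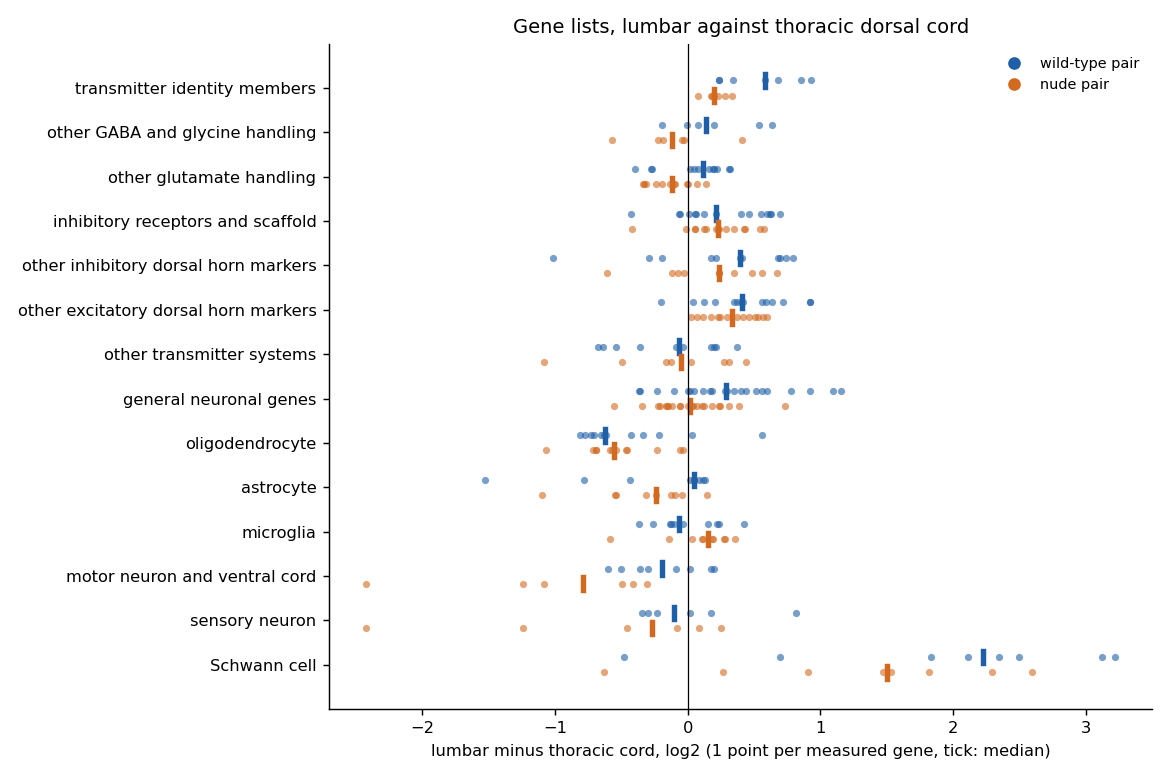
Lumbar minus thoracic dorsal cord (x axis, log2) for each measured gene of 14 lists (y axis), 1 point per gene, blue for the wild-type and orange for the nude pair, with a vertical tick at the median of each list. The transmitter identity genes (top row) lie above 0 in both pairs with medians of 0.58 and 0.20, the excitatory markers have medians of 0.41 and 0.33, the oligodendrocyte medians lie below 0, and the Schwann cell medians farthest above it. Lists of Hox genes are not drawn.

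Across tissues the spread was far wider than between segments. The test took the mean of both arrays of a tissue and rat type as 1 value, which gave 2 pools per tissue, with rat type as a block in limma. A probe entered if it was well above background on all 4 arrays of at least 1 tissue. Slc6a5, Gad2, Lbx1 and Pax2 entered through the cord alone. Of all 19723 probes tested 31.9% were called higher in the cord than in the DRG and 28% higher in the cord than in the nerve, and 6 of the 7 transmitter genes were called higher in each. Since Slc6a5, Gad2 and Lbx1 passed the filter only through the tissue where they are high, their calls follow from it, and their differences are given below as descriptions. Slc17a6 and the brighter probe of Gad1 entered through the cord and the DRG but not the nerve. Their calls against the nerve therefore follow from the filter as well. With the filter on every array 3 genes were called higher than in the DRG and 1 higher than in the nerve. The share of higher probes among those called was 53.1% for cord against DRG but 74.7% under normexp and 41.4% with the 75th percentile, and 42.0% for cord against nerve but 58.1% under normexp and 53.5% under cyclic loess. For DRG against nerve 13.5% were called higher, among them the brightest probes of Slc17a6 and Gad1 and the dimmer probe of Slc6a5 (adjusted p = 0.0050 for the last), and 33.3% lower, among them Slc32a1. Pax2 was among the 28.1% called lower in the cord than in the DRG. The order of levels was cord, DRG and nerve for Slc17a6 and Gad1, and cord, nerve and DRG for Slc32a1.

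Slc32a1 was well above background on all 12 arrays. It read 5.93 to 6.78 in the cord, 1.02 to 1.68 in the DRG and 1.90 to 2.36 in the nerve, with no overlap between the tissues. The cord exceeded the DRG 31.1-fold (4.96 ± 0.16 log2, SE, limma adjusted p = 2.1e-05) and the nerve 18.7-fold (4.23 ± 0.16, adjusted p = 5.4e-06). Within 1 slide and rat type the cord to DRG fold was 30.5 in nude and 31.7 in wild-type rats. The nerve in turn exceeded the DRG by 0.73 ± 0.16 on the log2 scale (adjusted p = 0.011), a call that was lost in 5 of 24 alternatives.

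Gad1 read 4.55 to 5.14 in the cord and 0.72 to 1.09 in the DRG, and in the nerve it was well above background on the wild-type contralateral array alone, at -0.87. The cord exceeded the DRG 16.7-fold (limma, adjusted p = 2.6e-05). Against the nerve, where 3 of 4 arrays were not well above background, the fitted differences depend on the floor. As descriptions they were 6.19 for the cord and 2.13 for the DRG on the log2 scale. They ran from 4.26 to 6.82 and from 0.75 to 2.76 over the alternatives. Its dim probe, which was not well above background outside the cord, did not pass (at least 1.59-fold against the DRG, adjusted p = 0.055). No DRG or nerve array had Gad2 well above background, while it read 2.35 to 3.03 in the cord. The cord was at least 19.0-fold above the DRG and at least 17.6-fold above the nerve. A bound of this kind sets the mean of the cord arrays against the lowest probe well above background on each array of the other tissue.

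Slc6a5 read 3.99 to 4.33 in the cord, and outside it only the wild-type DRG array of the injected side was well above background, at -1.13. With the other DRG arrays at their floors the cord exceeded the DRG by 5.38 on the log2 scale, a value that ran from 3.50 to 6.69 over the alternatives, and it was at least 48.4-fold above the nerve. The dimmer probe gave a different picture. It read -0.33 to 0.40 in the cord and -0.52 to 0.27 in the DRG, ranges that overlap, and the difference was 0.23 with a 95% interval from -0.15 to 0.61 (adjusted p = 0.246). Its cord level was 2.21-fold above that of the nerve, where 2 of 4 arrays were well above background. The brighter probe carries the cord difference of this gene, and the cause of the disagreement was not tested.

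Slc17a6 is also the transporter of many sensory neurons of the DRG. It read 5.60 to 6.05 in the cord and 4.36 to 4.68 in the DRG, a 2.50-fold difference (1.32 ± 0.24 log2, limma adjusted p = 0.0043), which was 2.56-fold within the nude and 2.45-fold within the wild-type slide. In the nerve, which holds axons but no nerve cell bodies, it read between -1.89 and 0.17 and was well above background on 3 of 4 arrays. The cord exceeded the nerve 103-fold and the DRG exceeded it 41.1-fold. Both folds are descriptions, since the gene entered the test through the cord and the DRG. The nerve signals were low, 10.6 to 37.3. On the log2 scale the 2 differences ran from 5.04 to 7.11 and from 3.27 to 5.78 over the alternatives. Of the 7 measured genes Slc17a6 had the largest difference between DRG and nerve.

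No DRG or nerve array had Lbx1 well above background, and the cord was at least 4.26-fold and at least 3.93-fold above them. Pax2 was dim everywhere. It read -1.76 to -1.44 in the cord, and -1.36 to -0.35 in the DRG, where 3 of 4 arrays were well above background. The fit put the cord below the DRG by 0.62 (adjusted p = 0.031), but 9 of 25 alternatives lost that call, and the adjusted p over the alternatives ran from 0.012 to 0.32. Against the nerve Pax2 did not pass (adjusted p = 0.120).

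**Figure D4:**
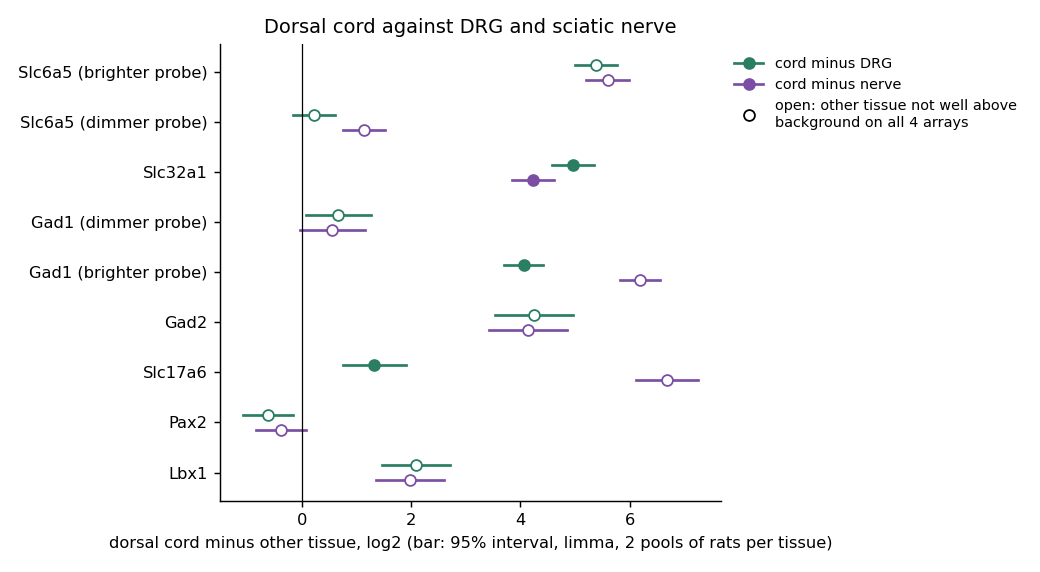
Dorsal cord minus DRG (green) and dorsal cord minus nerve (purple), in log2 units (x axis), for each tested probe of the transmitter genes (y axis), with 95% intervals from limma over 2 pools per tissue. Open points have a second tissue that was not well above background on all 4 arrays. The brighter and dimmer probes of Slc6a5 and Gad1 lie apart, and Slc17a6 has the widest gap between the 2 comparisons.

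Between the injected and the contralateral side, 5 genes were measured in the wild-type DRG and 4 in the nude DRG, and none measured on both arrays of a pair differed by 2-fold, against 0.499% of genes at least 2-fold higher and 0.517% lower in the wild-type DRG and 0.692% and 0.388% in the nude DRG. Slc32a1 read 1.68 on the wild-type injected-side array and 1.07 on the contralateral one, and 1.65 and 1.02 in the nude pair. The ratios were 1.53-fold (wild-type) and 1.55-fold (nude), and 97.2% and 97.5% of genes had lower ratios. The signals behind these values were low, 184 and 78.8 in the wild-type and 71.3 and 39.5 in the nude pair, on 1 spot each. Slc17a6, with 10 spots, gave 1.10-fold in wild-type and 0.837-fold in nude DRG. Slc6a5 was at least 1.51-fold higher on the injected side of the wild-type DRG, from a signal of 26.3, so it may or may not pass 2-fold. Its dimmer probe, measured on both arrays, pointed the other way, at 0.580-fold. Gad1 gave log2 ratios of 0.27 and -0.03, and Pax2 0.04 in the wild-type pair and 0.50 in the nude pair, where its contralateral array was not well above background.

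In the wild-type nerve all 4 genes measured on their brightest probe were lower on the injected side, where 44.7% of all genes had a ratio above 0 and 4.09% were at least 2-fold lower. The dimmer probe of Slc6a5 went the other way, with a log2 ratio of at least 0.43 (SE between spots 0.47). Slc17a6 was past 2-fold. Gad1 and Pax2 were not well above background on the injected array, so their log2 ratios of -0.79 and -0.33 are bounds, and Gad1 may also pass 2-fold. The standard error between spots was 0.32 for Pax2. Slc17a6 read -1.22 on the injected and 0.17 on the contralateral array, a log2 difference of -1.40 (SE between spots 0.10), from signals of 15.5 and 37.3. Of all genes 1.53% had a lower ratio. In the nude nerve the injected array was the dimmest of the 12, with a floor of -0.62 against -2.19 on its contralateral array, and Slc17a6 was not well above background there, so that no ratio is given. General neuronal genes had a median of -0.59 in the wild-type nerve, where 13 of 15 were lower and the median of all genes was -0.05. In the nude nerve their median was -0.67 and 9 of 13 were lower. The median of all genes there was -0.38, and only 28% of them had a ratio above 0. The part of axon content in the Slc17a6 value was not tested. Slc32a1 read 1.90 and 1.96 in the wild-type nerve and 2.36 and 2.10 in the nude nerve, ratios of 0.962-fold and 1.20-fold.

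Profiles over the 12 arrays were compared after the mean of each gene was subtracted, and the likeness was the root mean square difference in log2 units to each of 15158 other genes. For Slc6a5 the nearest were Htr2c, a serotonin receptor (0.08), Camkv (0.20) and Penk, the enkephalin precursor (0.26). All of these were near 4 in the cord and at or near the floor on most other arrays, so floored values count toward the likeness. Near Slc17a6 lay Rit2, a neuronal small GTPase (0.24), and Scg2, a secretory granule protein (0.37), which were high in cord and DRG alike. The nearest profiles to Slc32a1 were less close. They were Olig1, a transcription factor of oligodendrocytes (0.41), Cabp7 (0.41) and Cldn10 (0.44). Olig1 had its lower value on the lumbar array in both rat types, at 5.34 and 5.66 in the wild-type and 5.28 and 5.77 in the nude pair, the reverse of Slc32a1.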

How the data were processed

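RNA was measured on 12 single-color Agilent arrays, 1 for each tissue, rat type and side or segment, without replicate arrays. Spot extraction by the authors used Agilent Feature Extraction (10.5 per the labels, 10.7.3.1 per the file headers). The deposited spot intensity (processed signal) has the local background subtracted and spatial trends corrected, and is not normalized between arrays. The deposited flags of 0 or 1 mark spots well above background, saturated or outlying, and saturation was on 0 spots. The authors also deposited log2 values normalized between arrays, whose columns have the same sorted values, and these were used as an alternative.

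Spots flagged as outliers were dropped (270 to 519 of 58717 per array), log2 intensities of the spots of a probe were averaged, and the array median was subtracted. Of 30367 probes 18006 were named through RefSeq accessions (GRCr8), and 2607 genes had several probes, of which the brightest was used. Names are newer than the array design. Probe sequences were not searched, so binding to related genes was not checked. Values under the floor were set to it.

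Arrays of a pair were compared as ratios with no test and a 2-fold threshold. Segments and tissues were tested with limma (3.58.1, R 4.3.3), rat type as a block and Benjamini-Hochberg adjustment over all probes. P-values measure how much a difference varied between 2 pools of 3 rats, 1 pool of each rat type. These pools also differ in strain, day and T cells and, for cord and DRG, in slide, so they are not replicates of 1 condition. The fits were tested on simulated data. Named genes were every probe of the transmitter genes, up to 4 genes of each other list with the largest mean segment ratio among those well above background on all cord arrays, and the 3 nearest profiles. Hoxd9 falls under the list rule. Some genes that this rule names are not reported here. The genes and the 15 other lists were chosen with earlier results of these data known. Alternatives were normexp (offset 50, on the median spot signal), a t-test, 75th percentile, quantile and cyclic loess scaling and other filters. The t-test was unpaired between tissues, as in the methods, and paired by rat type between segments. Tables were handled in Python 3.11.15 with pandas 2.3.3 and numpy 2.4.6, intervals came from scipy 1.17.1, and plots from matplotlib 3.10.9.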

Additional observations from a re-analysis of the deposited data

Results flagged for a closer look

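For 3 genes the ratio of the injected over the contralateral side pointed in opposite directions in wild-type and nude rats, with 1 pair of arrays in each. The difference between the rat types was not tested in any of them. In the DRG, the log2 ratio of Slc17a6 was 0.1351 for wild-type rats and -0.2575 for nude rats. For Gad1 it was 0.2656 in wild-type DRG and -0.03499 in nude DRG, with standard errors between spots of 0.12 and 0.24. The nude value is smaller than its error, so its sign is not settled. In the nerve, Slc32a1 gave -0.05641 in wild-type rats and 0.2625 in nude rats, on 1 spot per array, so the error of these values is unknown. In the same DRG pairs the general neuronal genes had medians of 0.13 and -0.18. No array of a tissue stood far enough from the other 3 to be marked, in any of 13 gene and tissue groups checked.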

How the results depend on the processing

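All 7 transmitter genes kept the higher lumbar value in both pairs under each setting run. No paired analysis by replicate number was possible because each condition has 1 array and no number, and animals were paired only through the rat type block. Between the segments the paired t-test called 1 probe. Limma called 0 probes there, but 27 with the 75th percentile, 15 with quantile normalization and 15 with the authors' normalized values. Limma called 1580 with normexp, 10 with the filter on every array, 9 without the rat type block and 19 with all 12 arrays in the fit. Without 1 array, which leaves 1 pair and a spread borrowed from the other arrays, it called 2 to 15. Of the transmitter genes 1, Slc32a1, was called there under normexp, against 0. Between tissues the methods' t-test called 2977 probes for cord against DRG, where limma called 11832, and 820 for DRG against nerve, where limma called 9244 and normexp 6076. The filter on every array left 3 of 6 genes called higher than in the DRG, 1 of 6 higher than in the nerve and 0 of 2 for DRG against nerve, since it drops the genes with a tissue at the floor. The methods' t-test called 0 of 2 for DRG against nerve and 4 of 6 for cord against DRG, without Gad2 and Lbx1 (adjusted p = 0.071 and 0.146). Among probes called there, 28.9% were higher in the DRG, but 47.5% with the 75th percentile, 44.5% with quantile normalization and 51.6% under cyclic loess.

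The number of genes past 2-fold depended on how dim spots were treated. In the wild-type cord it was 193, but 76 with normexp, 529 with no filter and no floor and 39 at 3-fold, and in the nude cord 147, 48, 604 and 46. In the wild-type DRG it was 110, 32, 607 and 22, and in the nude DRG 103, 22, 653 and 29, with 54 under the filter on every array. In the wild-type nerve it was 896, 310, 1574 and 272, and in the nude nerve 1989, 4118, 5754 and 381. Signal over background limits Slc17a7, Pax2 and every gene at the floor in DRG or nerve. The wild-type all-gene median fell to -0.14 under normexp from -0.07. The excess of the 7-gene median over it fell from 0.65 to 0.48, and in the nude pair from 0.27 to 0.22.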
